A study of Homo sapiens with 3 samples.

Results

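GCG, PPY, PYY and NPY encode glucagon, pancreatic polypeptide, peptide YY and neuropeptide Y. They were taken by symbol from the gene lists of 3 single-cell RNA libraries, 4 of the 33538 genes in each file, and all 4 were found in every library. The starting cells were H1, an established line of human embryonic stem cells, and the differentiated products were labelled as beta cells. They were labelled PAX6-/- (KO), PAX6+/- (HET) and unedited (WT), with 1 library each and no other treatment named. The sources used here give neither the position of the PAX6 lesion nor the number of clones nor the day of collection. PAX6 encodes a paired-domain and homeodomain transcription factor of eye, brain and islet. Each genotype is therefore 1 library, no difference between genotypes could be tested, and all intervals cover counting error only (95%).

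Glucagon is made by alpha cells of the islet, where the convertase PC2 cuts it from proglucagon, while L cells of the gut cut the same precursor to GLP-1 with PC1/3. Glucagon raises hepatic glucose output. Pancreatic polypeptide is the product of PP cells, peptide YY is made by L cells of the gut and in the islet, and neuropeptide Y is mainly a neuropeptide. The last 3 share a fold and act through Y receptors. In mice Pax6 is needed for alpha cells to form and for glucagon transcription, and human fetal and stem cell-derived endocrine cells often hold several hormones at once.

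In GENCODE 29 on GRCh38, GCG lies on chromosome 2 from 162142873 to 162152404 (minus strand) and NPY on chromosome 7 from 24284163 to 24291865 (plus strand). PPY (43940804 to 43942468) and PYY (43952738 to 44004469) are neighbours on the minus strand of chromosome 17, with 10269 bases and 0 annotated genes between them. None of the 4 overlaps another annotated gene, so their counts are not shared with an overlapping partner. All 4 matched RefSeq promoter windows on GRCh38.p14. The 250 bases before the start are shown because GCG, PPY and PYY differed in the same order between the libraries, while NPY was near the limit of detection. PPY and PYY have 2 listed starts each, and the start whose window has TATAA nearest to it is shown. Capitals mark TATAA, the core promoter box, and TAAT, the core letters of many homeodomain sites, on either strand.
GCG promoter, chr2:162152248-162152497, minus strand: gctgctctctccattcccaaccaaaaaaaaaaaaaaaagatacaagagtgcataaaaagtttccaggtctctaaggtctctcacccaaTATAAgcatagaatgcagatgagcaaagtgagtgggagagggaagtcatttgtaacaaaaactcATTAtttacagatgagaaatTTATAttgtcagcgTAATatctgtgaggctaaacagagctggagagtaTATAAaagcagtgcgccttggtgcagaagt
PPY promoter, chr17:43942477-43942726, minus strand: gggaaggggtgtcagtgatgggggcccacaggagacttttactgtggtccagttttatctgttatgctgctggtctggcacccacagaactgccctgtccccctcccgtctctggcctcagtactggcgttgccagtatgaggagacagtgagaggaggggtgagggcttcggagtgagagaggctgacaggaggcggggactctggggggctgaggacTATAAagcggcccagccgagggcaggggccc
PYY promoter, chr17:43953941-43954190, minus strand: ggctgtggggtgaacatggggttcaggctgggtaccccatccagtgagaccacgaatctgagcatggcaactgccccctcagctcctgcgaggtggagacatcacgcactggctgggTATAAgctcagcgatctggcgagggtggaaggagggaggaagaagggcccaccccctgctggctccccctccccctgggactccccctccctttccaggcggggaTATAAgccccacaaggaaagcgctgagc
NPY promoter, chr7:24283940-24284189, plus strand: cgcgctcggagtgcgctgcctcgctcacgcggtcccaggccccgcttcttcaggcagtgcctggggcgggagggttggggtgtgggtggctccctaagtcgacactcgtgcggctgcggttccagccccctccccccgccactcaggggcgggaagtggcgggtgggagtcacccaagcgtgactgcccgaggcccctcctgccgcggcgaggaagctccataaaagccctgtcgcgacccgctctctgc
TATAA, on either strand, stood 162, 78 and 30 bases before the GCG start. It stood 31 bases before the PPY start, and 133 and 28 bases before the PYY start. The PPY and PYY starts shown were chosen for the nearest TATAA. The other PPY start had TATAA only 233 bases before it, and the other PYY start had none in its window. TATAA was not among the letters of the NPY window. TAAT occurred 2 times in the GCG window and in none of the other windows shown. Of 35116 RefSeq windows of this length, 18.9% held TATAA and 47.4% held TAAT on either strand. The GCG window was AT-rich, with 38.4% G and C, against 62.0% for PPY, 63.6% for PYY and 71.6% for NPY. The windows describe sequence only and say nothing of which factor binds.

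The files held 9726 KO, 9628 HET and 9667 WT barcodes with 136834433 to 145948590 UMIs a library. After filtering, 8082 KO, 7791 HET and 7969 WT cells were analysed. Between 26 and 43 barcodes were shared between any pair of libraries. Endocrine cells were taken as CHGA-high cells, those with 10 or more UMIs of the granule gene CHGA per 10,000. There were 977 in KO, 539 in HET and 1414 in WT, so most cells of these beta cell libraries had little CHGA. Of 14 other endocrine markers, 13 in KO and 14 in HET and WT were at least 2-fold higher in CHGA-high than in CHGA-low cells, and INSRR had 0 UMIs in both KO classes. All 7 neural markers were also higher in CHGA-high cells and none was at 0, with summed levels of 2178 CPM in KO, 1502 CPM in HET and 1638 CPM in WT, against 22.3 to 58.4 CPM in CHGA-low cells. Liver markers summed to 995 CPM in KO, 1484 CPM in HET and 1574 CPM in WT CHGA-high cells, and 5073 to 7331 CPM in CHGA-low cells. Acinar markers summed to 25.3 CPM in KO, 43.5 CPM in HET and 140 CPM in WT CHGA-high cells, against 24.4, 11.3 and 16.0 CPM in CHGA-low cells, and 1 of 6, CTRB1, was at 0 in all 3 libraries. PRSS2, the gene of a trypsinogen, gave 7.57 CPM of this in KO, 15.9 CPM in HET and 71.9 CPM in WT. Immune markers summed to 180 CPM in KO, 240.1 CPM in HET and 255 CPM in WT CHGA-high cells. The acinar, immune and liver sums thus stood in the same order as GCG. So did the gut sums, at 174 CPM in KO, 182 CPM in HET and 193 CPM in WT, and the endothelial sums, at 12.0, 13.1 and 14.4 CPM. The sums of the other marker lists did not. Single markers of the immune and liver lists did not all follow this order. In the liver list FGB did, at 338 CPM in KO, 595 CPM in HET and 721 CPM in WT, whereas ALB was 19.5, 104 and 72.7 CPM. In the immune list CD74 was 94.9 CPM in KO, 161 CPM in HET and 55.3 CPM in WT, and LYZ 74.9, 72.0 and 190 CPM. CD74 and LYZ gave most of the immune sum. PTPRC, on the same list, was 0.0842 CPM in KO, 0 CPM in HET and 0.0534 CPM in WT. The median CHGA-high cell had 12220 UMIs in KO, 12519 in HET and 12473 in WT. The median mitochondrial percentage, which rises in damaged cells, was 9.27% in KO, 8.60% in HET and 6.55% in WT. The part of these marker and quality differences in the results was not tested. PAX6 RNA itself stood at 313 CPM in KO, 271 CPM in HET and 358 CPM in WT CHGA-high cells. A disrupted allele can still be transcribed, so these values do not check the genotype.

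GCG was 43.5-fold lower in KO than in WT and 1.82-fold lower in HET. Summed over CHGA-high cells it had 10060 UMIs in KO, 143484 in HET and 639223 in WT. Scaled with TMM factors, which correct CPM (UMIs scaled to a common library total) for composition, this was 813 CPM in KO, 19479 CPM in HET and 35361 CPM in WT. GCG thus took 0.0847% of all UMIs of KO CHGA-high cells, 1.94% in HET and 3.41% in WT. The interval of the fold decrease was 42.7 to 44.4 for KO against WT and 1.81 to 1.83 for HET against WT. KO lay 24.0-fold below HET. In HET against WT the call depended on how doublets were treated. With Scrublet's automatic threshold, which removed 1168 WT barcodes and 0 from HET and KO, the log2 ratio was -1.19 in place of -0.86.

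The GCG difference was one of cell number and of level per cell. Cells with 10 or more GCG UMIs per 10,000, called GCG-high, were 57 of the 977 KO cells (5.83%, 4.45 to 7.49), 156 of the 539 HET cells (28.9%, 25.2 to 33.0) and 550 of the 1414 WT cells (38.9%, 36.4 to 41.5). Within them the median level was 65.5 UMIs per 10,000 in KO, 394 in HET and 596 in WT. The middle range of GCG-high cells ran from 24.8 to 192 in KO, from 104 to 1088 in HET and from 76.2 to 1290 in WT. KO cells therefore overlapped the lower range of WT but not its top. Cells with 1000 or more GCG UMIs per 10,000 numbered 0 in KO, 48 in HET and 199 in WT, and the highest KO cell had 743 against 3308 in HET and 3307 in WT. In KO, 10 cells held 50% of all GCG UMIs, against 26 in HET and 90 in WT.

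Outside the CHGA-high cells GCG was present everywhere in WT at a low level. It was 0.0386 UMIs per 10,000 in KO CHGA-low cells, 0.739 in HET and 3.05 in WT, against 8.47, 194 and 341 in CHGA-high cells of KO, HET and WT. At least 1 GCG UMI was found in 13.3% of KO, 75.9% of HET and 97.4% of WT CHGA-high cells, and in 5.53%, 62.4% and 95.6% of CHGA-low cells in the same order. Median depth was 15372, 13748 and 14246 UMIs in these CHGA-low cells. A single GCG UMI therefore does not mark a GCG cell in WT or HET, and shares of cells with a UMI are read as background there. At the threshold of 10 per 10,000, CHGA-low cells that were GCG-high numbered 2 in KO (0.0281%), 28 in HET (0.386%) and 173 in WT (2.64%). Among cells just outside the CHGA rule, with 8 to 10 CHGA UMIs per 10,000, GCG averaged 0.138 per 10,000 in 45 KO cells, 3.61 in 43 HET cells and 18.4 in 73 WT cells. Just inside it, with 10 to 12, the values were 0.979 in 26 KO cells, 2.56 in 20 HET cells and 80.9 in 57 WT cells.

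**Figure D1:**
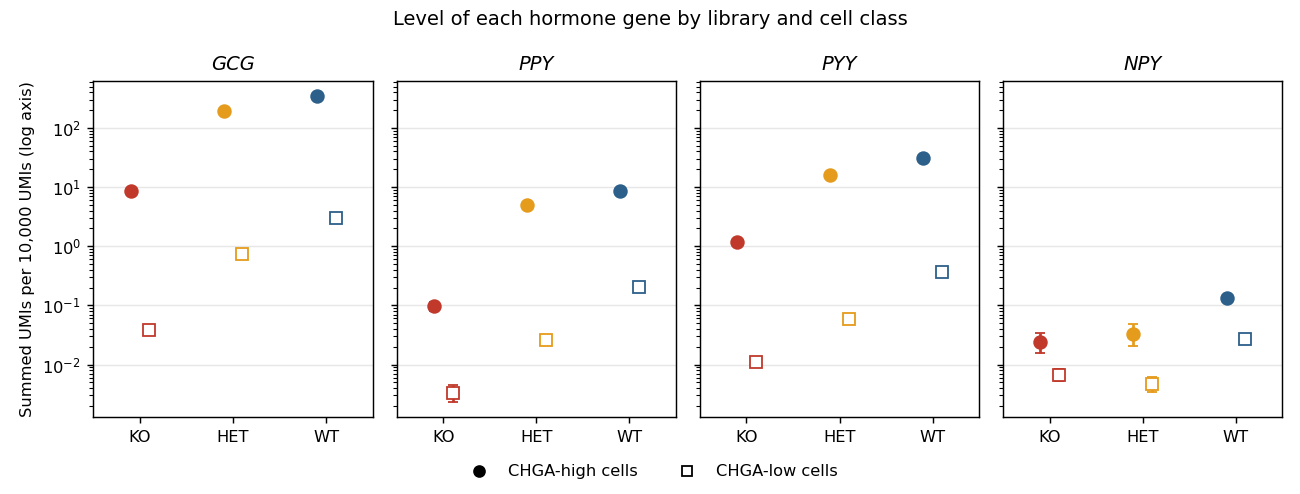
Summed UMIs per 10,000 (log axis) of GCG, PPY, PYY and NPY in CHGA-high (filled circles) and CHGA-low cells (open squares) of the KO, HET and WT libraries, 1 library each, with exact 95% Poisson intervals that cover counting error only. GCG stands at 8.47 in KO, 194 in HET and 341 in WT CHGA-high cells, and its CHGA-low level follows the same order, at 0.0386, 0.739 and 3.05.

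PYY followed the order of GCG. It had 1420 UMIs in KO, 11673 in HET and 58130 in WT CHGA-high cells, or 115 CPM in KO, 1585 CPM in HET and 3216 CPM in WT. This was 28.0-fold lower in KO than in WT (26.6 to 29.6), 2.03-fold lower in HET than in WT (1.99 to 2.07) and 13.8-fold lower in KO than in HET. The HET value lay at the edge of the 2-fold threshold, and its log2 ratio of -1.02 was -0.98 with plain CPM, -0.93 with every cell weighing the same and -0.89 without cells high for the ghrelin gene GHRL. PYY-high cells were 28 of 977 in KO (2.87%), 102 of 539 in HET (18.9%) and 389 of 1414 in WT (27.5%). Their median level was 20.8 UMIs per 10,000 in KO, 37.5 in HET and 61.6 in WT. The highest KO cell reached 85.6 per 10,000, below the 628 of HET and the 970 of WT. CHGA-low cells held 0.0109 PYY UMIs per 10,000 in KO, 0.0593 in HET and 0.360 in WT, against 1.20, 15.8 and 31.0 in CHGA-high cells. In WT, 34 PYY-high cells held 59.2% of the PYY UMIs of CHGA-low cells. WT cells without any CHGA UMI had 0.147 per 10,000.

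PPY was 96.2-fold lower in KO than in WT, and no KO cell was high for it at full depth. It had 114 UMIs in KO, 3692 in HET and 16010 in WT CHGA-high cells, or 9.21 CPM in KO, 501 CPM in HET and 886 CPM in WT. The interval of the KO decrease was 80.0 to 117. HET was 1.77-fold below WT (1.70 to 1.83), and KO was 54.4-fold below HET. PPY-high cells were 0 of 977 in KO, and the exact interval of that share reached 0.377%. In HET 29 of 539 cells were PPY-high (5.38%), and in WT 172 of 1414 (12.2%). The median level of PPY-high cells was 38.1 UMIs per 10,000 in HET and 34.9 in WT. CHGA-low cells held 0.00328 PPY UMIs per 10,000 in KO, 0.0261 in HET and 0.207 in WT, against 0.0959, 4.99 and 8.55 in CHGA-high cells. In WT, 25 PPY-high cells held 67.7% of the PPY UMIs of CHGA-low cells. WT cells without any CHGA UMI had 0.119 per 10,000. The log2 ratio of KO to WT was -6.59, and -4.94 with doublets kept. That of HET to WT was -0.82, and -2.11 without the 5 cells of each library with the most PPY, 1 of which held 22.6% of HET's PPY UMIs. In cells with RNA of the alpha cell gene IRX2 and without GHRL-high cells, a gate added after seeing the data, it was -0.12.

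NPY was near the limit of detection. It had 28 UMIs in KO, 24 in HET and 248 in WT CHGA-high cells, or 2.26 CPM in KO, 3.26 CPM in HET and 13.7 CPM in WT. KO was 6.06-fold below WT (4.09 to 9.31) and HET 4.21-fold (2.77 to 6.70). Between the ways of choosing and scaling the cells, the log2 ratio of KO to WT ran from -5.28 to -2.25 and that of HET to WT from -4.64 to -1.09. KO and HET could not be ordered, since their intervals overlapped and both were under the 5 CPM needed for a comparison. NPY-high cells were 0 of 977 in KO, 1 of 539 in HET and 6 of 1414 in WT, and CHGA-low cells that were NPY-high numbered 1, 0 and 6. A single cell held 42.9% of the NPY UMIs in KO and 45.8% in HET, and 4 cells held 50% of them in WT. CHGA-high cells exceeded CHGA-low cells by 3.50-fold in KO, 6.92-fold in HET and 4.83-fold in WT, against 112-fold or more for GCG. CHGA-low cells, which are more numerous, held 78 NPY UMIs in KO, 51 in HET and 274 in WT, and 1 KO cell had 52.6% of the 78. Within CHGA-high cells, much of the NPY RNA lay in ghrelin cells. Ghrelin cells are those with 10 or more UMIs per 10,000 of GHRL, the hormone gene of epsilon cells. These 211 KO, 79 HET and 55 WT cells held 26 of 28 NPY UMIs in KO (92.9%), 19 of 24 in HET (79.2%) and 109 of 248 in WT (44.0%), and made up 21.6%, 14.7% and 3.89% of CHGA-high cells. Within them NPY was 0.0987 UMIs per 10,000 in KO, 0.162 in HET and 1.69 in WT. Outside them 2 NPY UMIs remained in KO, 5 in HET and 139 in WT.

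**Figure D2:**
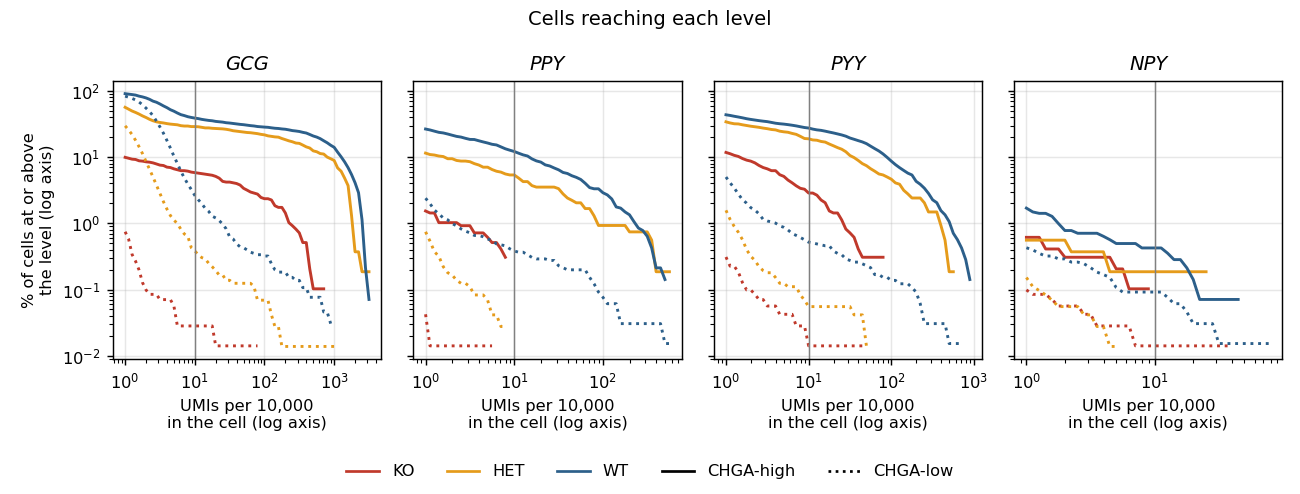
Percent of cells at or above each level, both on log axes, for the 4 genes in UMIs per 10,000, with KO, HET and WT in red, orange and blue, CHGA-high cells solid and CHGA-low cells dotted; the grey line is the threshold of 10 per 10,000. For GCG, 5.83% of KO, 28.9% of HET and 38.9% of WT CHGA-high cells reach the line, and the KO curve ends at 743 per 10,000.

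GCG, PPY and PYY reached 5 CPM in every library, and all 3 were at least 2-fold lower in KO than in WT, where 5.47% of the 11968 genes reaching 5 CPM in either library were that much lower. In HET against WT, PYY was at least 2-fold lower, against 2.45% of 11937 genes, and GCG and PPY lay within 2-fold. NPY reached 5 CPM in WT alone, so its inclusion depended on the library where it was high. With it the counts were 4 of 4 in KO and 2 of 4 in HET. In KO against HET, 3 of 3 were at least 2-fold lower, against 2.69% of 11818 genes. None was at least 2-fold higher in any comparison, where 2.52% of genes were higher in KO against WT, 1.35% in HET against WT and 1.30% in KO against HET. The median log2 ratio of all genes was -0.01 in KO against WT, -0.04 in HET against WT and 0.03 in KO against HET. These comparisons share libraries, so the values stand side by side and do not support each other. After every cell was thinned to 3000 UMIs, which left out 88 KO, 19 HET and 102 WT CHGA-high cells, GCG-high cells made up 6.30% in KO, 29.04% in HET and 39.3% in WT. Among thinned CHGA-low cells GCG-high cells made up 0.0143% in KO, 0.322% in HET and 6.08% in WT. In WT the same CHGA-low cells gave 1.57% before thinning, so the thinned WT shares hold more background. PYY-high cells were then 3.37% in KO, 21.7% in HET and 28.5% in WT. PPY-high cells numbered 3 of 889 in KO, 29 of 520 in HET and 163 of 1312 in WT, and NPY-high cells 1, 1 and 6. At this depth 3 UMIs reach the threshold, and none of these KO cells was high for PPY or NPY before thinning.

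GCG, PPY and PYY were often high in the same cells in HET and WT and seldom in KO. NPY was not, since 0 of 156 GCG-high cells in HET and 3 of 550 in WT were NPY-high. Any of the 4 genes was high in 81 KO cells (8.29%), 192 HET cells (35.6%) and 638 WT cells (45.1%). At least 2 of them were high together in 4 KO, 80 HET and 380 WT cells. Of GCG-high cells, 4 of 57 in KO (7.02%, 1.95 to 17.0), 72 of 156 in HET (46.2%, 38.2 to 54.3) and 320 of 550 in WT (58.2%, 53.9 to 62.3) were also PYY-high. Among cells that were not GCG-high, PYY-high cells made up 2.61% in KO, 7.83% in HET and 7.99% in WT. Most PYY therefore lay inside GCG cells in the unedited and heterozygous libraries. Seen from PYY, 4 of 28 PYY-high cells in KO (14.3%), 72 of 102 in HET (70.6%) and 320 of 389 in WT (82.3%) were GCG-high. Cells high for PYY alone were 24 in KO, 24 in HET and 40 in WT.

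PPY was nested in the other hormones more than it stood alone. Of PPY-high cells, 18 of 29 in HET (62.1%) and 127 of 172 in WT (73.8%) were GCG-high, and 22 of 29 in HET (75.9%) and 127 of 172 in WT (73.8%) were PYY-high. Cells high for all of GCG, PPY and PYY but not NPY numbered 0 in KO, 16 in HET and 97 in WT, whereas 5 HET and 16 WT cells were high for PPY alone. Of the 6 NPY-high WT cells, 3 were GCG-high and 3 were GHRL-high.

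Most GCG-high cells also held another islet hormone. INS, the insulin gene, was high in 39 of 57 GCG-high cells in KO (68.4%), 139 of 156 in HET (89.1%) and 469 of 550 in WT (85.3%), against 23.6%, 34.5% and 39.6% of the other CHGA-high cells in the same order. SST, the somatostatin gene of delta cells, was high in 2 KO, 37 HET and 119 WT GCG-high cells (3.51%, 23.7% and 21.6%). GHRL was high in 24 of 57 in KO (42.1%, 29.1 to 55.9), 18 of 156 in HET (11.5%) and 23 of 550 in WT (4.18%). In KO this was above the 20.3% of cells that were not GCG-high, whereas the values for those cells in HET and WT were 15.9% and 3.70%. GCG-high cells without high INS, SST or GHRL numbered 9 in KO, 11 in HET and 66 in WT.

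**Figure D3:**
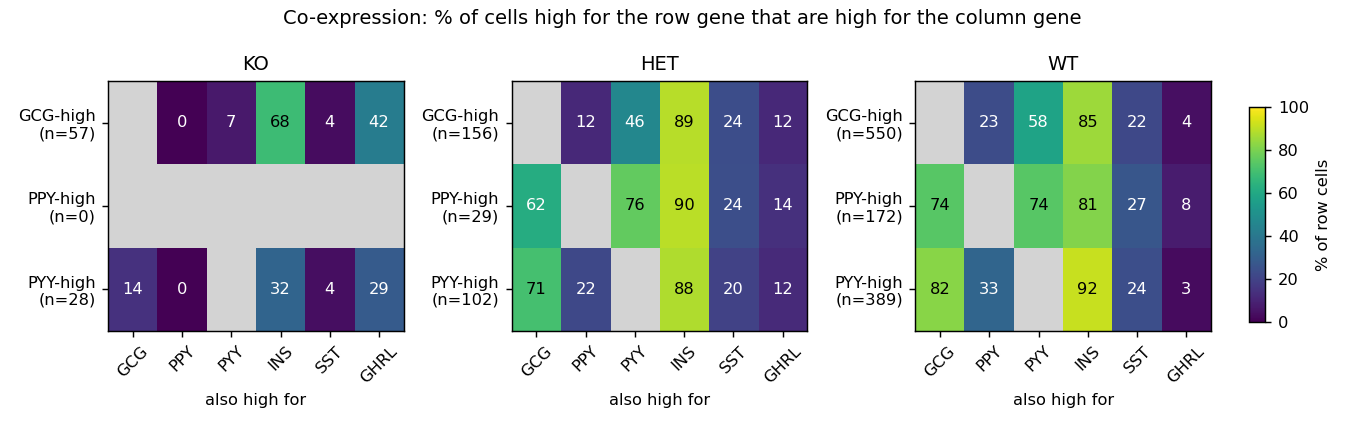
Percent of the GCG-high, PPY-high and PYY-high cells (rows, with the number of cells n) that were also high for the gene in each column, in the KO, HET and WT libraries; grey marks the gene itself or a row with no cells. The KO row of GCG-high cells has 7% PYY-high and 42% GHRL-high cells, and the WT row has 58% and 4%.

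Across single cells the rank correlations among GCG, PPY and PYY were lowest in KO, where most cells had 0 UMIs of each gene. Spearman's rho of GCG and PPY was 0.07 over 977 KO cells, 0.25 over 539 HET cells and 0.42 over 1414 WT cells. That of GCG and PYY was 0.19 over 977 KO cells, 0.47 over 539 HET cells and 0.54 over 1414 WT cells, and that of PPY and PYY was 0.24, 0.48 and 0.56 in the same order. With INS and SST the order was another, since rho of GCG and INS was 0.30 in KO, 0.52 in HET and 0.44 in WT, and that of GCG and SST 0.11, 0.35 and 0.20. A GCG UMI was found in 13.3% of KO, 75.9% of HET and 97.4% of WT CHGA-high cells, and a PPY UMI in 3.68%, 16.3% and 35.1%. The part of the many cells tied at 0 in the low KO values was not tested, so these values are not read as a loss of co-expression. Cells of 1 library share its free RNA and its sequencing, so these are descriptions and have no test. In cells without any CHGA UMI there were 23.4 PYY UMIs for every 100 GCG UMIs in KO, 6.83 in HET and 6.20 in WT, against 14.1, 8.14 and 9.09 in CHGA-high cells. Free RNA was not subtracted.

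Cells with RNA of IRX2, a homeobox gene of alpha cells, were set apart, a gate chosen after seeing the data. IRX2 stood at 49.4 CPM in KO, 64.6 CPM in HET and 83.4 CPM in WT CHGA-high cells, within 2-fold of WT in both. At least 1 IRX2 UMI was found in 274 of 977 KO cells (28.0%), 196 of 539 HET cells (36.4%) and 554 of 1414 WT cells (39.2%), and in 4.38%, 8.55% and 3.91% of CHGA-low cells. Among IRX2-positive cells, 37 of 274 in KO were GCG-high (13.5%, 9.69 to 18.1), against 94 of 196 in HET (48.0%, 40.8 to 55.2) and 325 of 554 in WT (58.7%, 54.4 to 62.8). Most IRX2-positive KO cells thus had little GCG. Their summed GCG was 18.1 UMIs per 10,000 in KO, 359 in HET and 618 in WT. In IRX2-negative cells it was 3.99 in KO, 75.7 in HET and 118 in WT, so KO was the lowest library on both sides of the gate. Among IRX2-negative cells 20 of 703 in KO (2.84%), 62 of 343 in HET (18.1%) and 225 of 860 in WT (26.2%) were GCG-high, so the gate holds only some of the cells with GCG. PYY-high cells made up 3.28% of IRX2-positive cells in KO, 27.0% in HET and 44.6% in WT, and PPY-high cells 0%, 7.65% and 19.5%.

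Ghrelin cells fell inside this gate too and were unequal between the libraries. GHRL-high cells made up 31.0% of IRX2-positive cells in KO, 21.9% in HET and 7.04% in WT. With them left out, 189 KO, 153 HET and 515 WT IRX2-positive cells remained, of which 11.6% in KO, 54.2% in HET and 59.2% in WT were GCG-high. Summed GCG was then 17.6 UMIs per 10,000 in KO, 444 in HET and 635 in WT, so KO was still far below WT without ghrelin cells, while HET came nearer to WT.

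**Figure D4:**
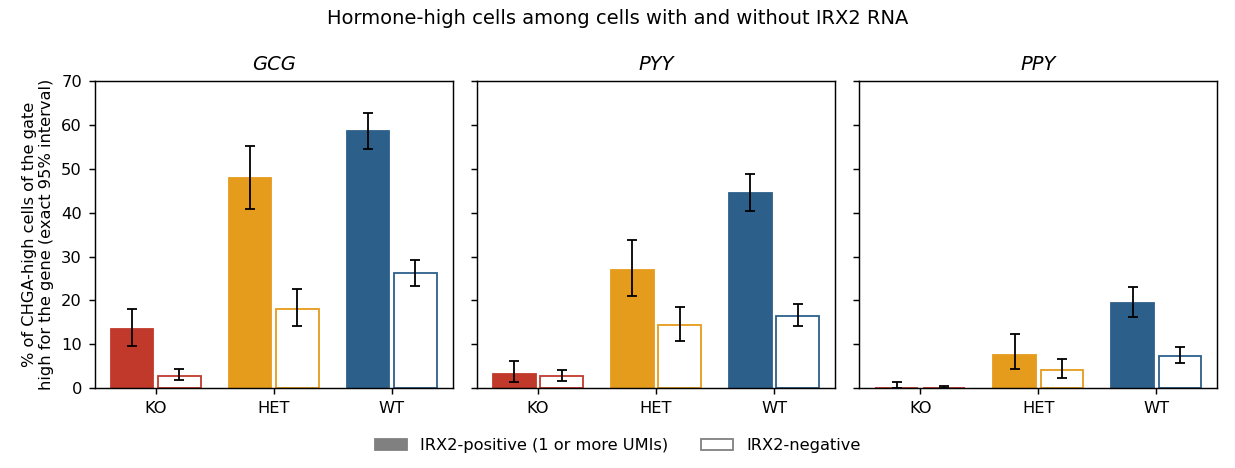
Percent of IRX2-positive (filled bars, at least 1 IRX2 UMI) and IRX2-negative (open bars) CHGA-high cells that were high for GCG, PYY or PPY in the KO, HET and WT libraries, with exact 95% binomial intervals that cover counting error only. GCG-high cells are 13.5% of IRX2-positive cells in KO, 48.0% in HET and 58.7% in WT.

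The few GCG-high cells of the KO library were like those of WT in some genes and unlike them in others. None of their barcodes occurred in the other libraries, and their median depth was 12569 UMIs against 12180 for other KO CHGA-high cells. IRX2 was 1.10 UMIs per 10,000 in KO GCG-high cells and 0.474 in other KO cells, against 1.21 and 0.407 in HET and 1.37 and 0.456 in WT. PAX6 was 8.29 and 2.91 in KO, 4.25 and 2.05 in HET, and 6.07 and 1.85 in WT. TTR, the transthyretin gene of alpha cells, was 228 in GCG-high and 50.6 in other KO cells, 173 and 48.6 in HET, and 162 and 54.1 in WT. In each library these alpha cell genes were thus higher where GCG was high. SCG5, which encodes the chaperone of PC2, was 5.68 and 2.89 in KO, 18.2 and 5.30 in HET, and 20.5 and 8.19 in WT, so KO GCG-high cells had less of it than GCG-high cells of HET and WT. CRH, the corticotropin-releasing hormone gene, was 22.6 in GCG-high and 6.67 in other KO cells, 5.24 and 4.14 in HET, and 0.900 and 0.382 in WT, so it was highest in the KO cells. PCSK1, which encodes PC1/3, was 1.87 and 1.73 in KO, 0.400 and 1.38 in HET, and 0.638 and 1.504 in WT. GC, the vitamin D-binding protein gene of adult alpha cells, ran the other way, at 0.102 in GCG-high and 7.59 in other KO cells, 2.01 and 4.24 in HET, and 0.833 and 4.52 in WT.

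The genes whose levels across the 1414 WT CHGA-high cells were most like each member were ranked among 11796 genes by Pearson's r of log2(1 + UMIs per 10,000). For GCG they included INS (0.52), PAX6 (0.52), NKAIN4 (0.47) and the G protein subunit gene GNAS (0.46). For PYY they were PAX6 (0.51), INS (0.49), GNAS (0.49), the transcriptional adaptor gene LMO2 (0.48) and the fatty acid receptor gene FFAR1 (0.48). For PPY they were MEIS2 (0.45), a homeobox gene on the PP cell list used here, the kainate receptor gene GRIK1 (0.43), LMO2 (0.41), IGSF21 (0.40) and VAT1L (0.37). PAX6, INS and GNAS were thus named for both GCG and PYY, and LMO2 for both PYY and PPY. For NPY the 5 genes were GHRL (0.24), CLDN11, CD40, WIPI1 and DLL1 (0.17 or less). These values are weak, and only 50 of the 1414 WT cells had an NPY UMI (3.54%). The part of this sparse detection in r was not tested. For GHRL, the share of the NPY UMIs of CHGA-high cells that lay in ghrelin cells is given above. Over the 539 HET cells r with GCG was 0.60 for INS and 0.34 for PAX6.

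These genes were ranked in WT and had to be found in WT cells, so the choice itself favours a lower level in KO and HET, and their ratios are a description that supports nothing. NKAIN4 was 25.5-fold lower in KO than in WT, LMO2 19.9-fold, GRIK1 8.55-fold, MEIS2 6.14-fold, INS 4.41-fold, IGSF21 3.45-fold and GNAS 2.53-fold. FFAR1 had 0.242 CPM in KO and 72.2 CPM in WT, and VAT1L 0.323 and 17.5 CPM. PAX6 lay within 2-fold. In HET, LMO2 was 2.99-fold and NKAIN4 2.67-fold lower than in WT, and INS was 7713 CPM in HET and 8874 CPM in WT.

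Transcription factors of alpha and other endocrine cells mostly lay within 2-fold. Of 14, all tested, 1 was at least 2-fold lower in KO than in WT, 2 were higher and 11 lay within 2-fold, beside 5.47% of all genes lower and 2.52% higher, with a median log2 ratio of 0.17 against -0.01 for all genes. The homeobox gene IRX1 was 2.82-fold lower (10.3 CPM in KO and 29.2 CPM in WT). POU3F4, a POU factor of mouse alpha cells, was 2.99-fold higher (21.8 and 7.30 CPM) and NKX2-2, a homeobox gene of most islet cells, 2.32-fold higher (202 and 87.0 CPM). In HET against WT 0 of 14 passed 2-fold in either direction, with a median of 0.01 against -0.04 for all genes.

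Among 8 genes of prohormone processing, SCG5 was 4.53-fold lower in KO (295 CPM in KO and 1333 CPM in WT) and 7 lay within 2-fold, with a median of -0.36. PCSK2, which encodes PC2, was 214 CPM in KO and 186 CPM in WT, and PCSK1 167 and 122 CPM. In HET 0 of 8 passed 2-fold and the median was -0.42. Of 16 other alpha cell products, 14 had enough counts, of which 1 was lower in KO, 1 higher and 12 within 2-fold, with a median of -0.15. This count is near the background, where 5.47% of all genes were lower and 2.52% higher. The phospholipase gene PLCE1 was 2.20-fold lower and GC 2.11-fold higher. TTR was 5980 CPM in KO and 9839 CPM in WT, within 2-fold. In HET 0 of 14 passed 2-fold, with a median of -0.04.

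PP cell genes were lower in part. Of 12, 9 had enough counts, and 4 were at least 2-fold lower in KO, 0 higher and 5 within 2-fold, beside 5.47% of all genes lower and 2.52% higher. Their median was -0.26, against -0.01 for all genes. MEIS2 was 6.14-fold lower (24.6 CPM in KO and 151 CPM in WT), the fibrinogen gene FGB 2.30-fold, THSD7A 2.29-fold and the ETS factor gene ETV1 2.16-fold. FGB is also on the liver marker list, whose summed level is given above. In HET 0 of 9 were lower and SLITRK6 was higher (17.8 CPM in HET and 7.58 CPM in WT), with a median of -0.41.

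Hormone and receptor genes of gut endocrine cells, with GCG and PYY themselves left out, were mostly lower in KO. Of 11, 9 had enough counts, and 6 were at least 2-fold lower in KO than in WT, 1 higher and 2 within 2-fold, beside 5.47% of all genes lower and 2.52% higher. The median log2 ratio was -1.94, against -0.01 for all genes. CASR and GIP reached 5 CPM in WT alone and FFAR4 in KO alone, which leaves 4 of 6 lower and 0 higher among genes that reached it in both. The calcium-sensing receptor gene CASR was 16.0-fold lower (1.62 CPM in KO and 25.8 CPM in WT), the incretin gene GIP 11.2-fold, the neurotensin gene NTS 9.75-fold and the gastrin gene GAST 7.61-fold. FFAR4, a receptor for long-chain fatty acids, was 2.61-fold higher (11.6 CPM in KO and 4.43 CPM in WT). In HET against WT, GIP and NTS were lower, the motilin gene MLN and GAST higher and 5 within 2-fold, with a median of -0.06. Of 11 receptor genes for these and related peptides, 5 had enough counts in KO against WT. The receptor partner gene RAMP2 was 2.21-fold and the GLP-1 receptor gene GLP1R 2.14-fold lower in KO, NPY1R was 2.34-fold higher and GCGR and GIPR lay within 2-fold, with a median of -0.58. GLP1R was under 5 CPM in KO, so its inclusion depended on WT, where it was high. Without it 1 of 4 was lower and 1 higher. In HET 1 of 5, RAMP2, was lower (19.7 CPM in HET and 42.0 CPM in WT), with a median of -0.76.

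**Figure D5:**
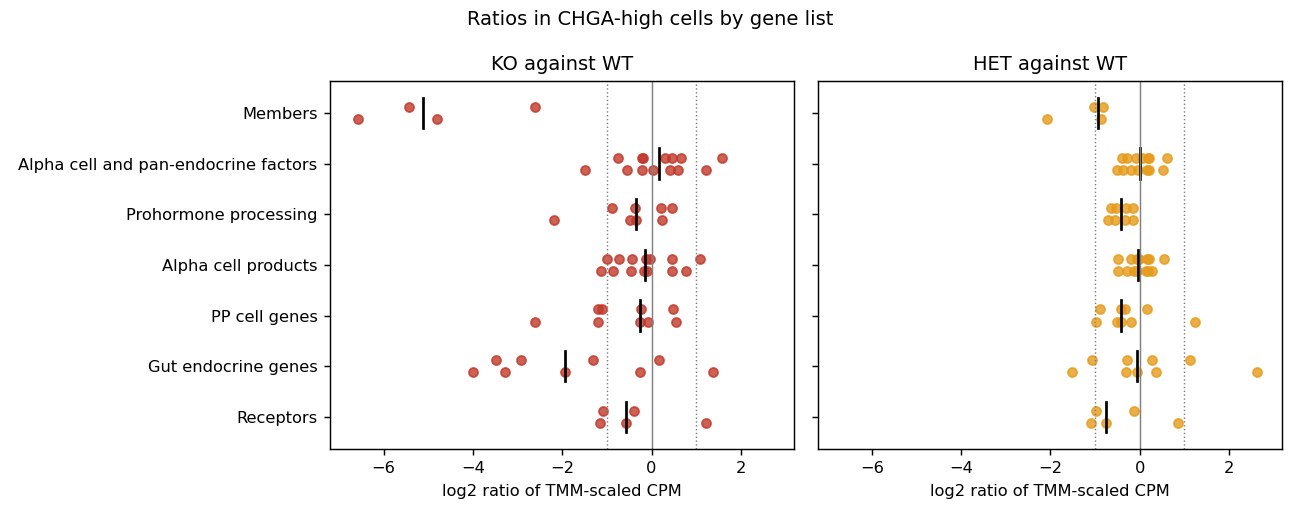
Log2 ratios of TMM-scaled CPM in CHGA-high cells for KO against WT (left) and HET against WT (right), 1 point per gene that reached 5 CPM in either library, for the 4 genes and 6 lists; black ticks are medians, dotted lines 2-fold. In KO the 4 genes and 6 of 9 gut endocrine genes (median -1.94) lie past 2-fold lower, and 1 gut endocrine gene lies past 2-fold higher. Of these, NPY, CASR and GIP were under 5 CPM in KO and were included through WT. The alpha cell and pan-endocrine factors have a median of 0.17 in KO.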

How the data were processed

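The authors deposited 1 matrix of raw UMI counts per library, made, per the file headers, with Cell Ranger 6.1.2. GRCh38 and Seurat are named in the submitters' processing notes, while the annotation release, aligner settings and transcript end read by the kit are not given in the sources. Of the 33538 gene IDs, 33456 were found in GENCODE 29. Barcodes needed at least 1000 UMIs, 500 genes and at most 20% mitochondrial UMIs. Doublets were scored with Scrublet (scanpy 1.11.5, expected rate 0.08). Its automatic threshold called 0 HET and 0 KO barcodes and so did not work there, and the top 8% of scores was removed from each library alike. These scores change with the numerical library used, and were computed with fixed settings.

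Counts were summed per library over CHGA-high cells, since cells are not replicates, and scaled to CPM with TMM factors from the 3 sums (edgeR 4.0.16, R 4.3.3). Levels per cell are plain UMIs per 10,000. Ratios have exact conditional binomial, levels exact Poisson and shares exact Clopper-Pearson intervals. A gene was compared at 5 CPM or more in 1 of 2 libraries and counted past 2-fold. The calculation was tested on simulated counts. The genes named are the 4 members, INS, SST and GHRL, list genes with at least 5 CPM in a library (at most the 4 largest fold changes and known regulators with values) and the 5 genes most like each member among those with a UMI in at least 5% of WT CHGA-high cells. INSRR, FGB as a liver marker, CRH, the IRX2 gate and the gate without GHRL-high cells were taken up after values were seen. Some genes that this rule names are not reported here. Members and lists were chosen with earlier results of these data known. Alternatives covered the doublet treatment, cell filters, both thresholds, scaling (with DESeq2 1.42.0 size factors), cell weights, background and single cells with many UMIs.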

Additional observations from a re-analysis of the deposited data

How the results depend on the processing

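No paired analysis was possible because each genotype had 1 library, and for the same reason no replicate could be left out. The count of 4 of 4 genes at least 2-fold lower in KO than in WT, with NPY included, held in all 13 alternatives, and 3 or 4 were lower in KO than in HET. The count in HET against WT, 2 with NPY, was 4 with Scrublet's automatic threshold and 1 with plain CPM, with every CHGA-high cell weighing the same, without GHRL-high cells, and in IRX2-positive cells without GHRL-high cells, a gate added after seeing the data. With at least 50 CPM, 124 genes were lower and 62 higher in KO against WT, 42 and 22 in HET against WT, and 50 and 19 in KO against HET. With no filter these were 2157 and 1314, 1429 and 1024, and 1347 and 969. With the automatic threshold 355 genes were higher in HET against WT. Of 156 log2 ratios of single genes under an alternative, 68 moved by less than their counting interval and 88 by more, and 0 called ratios changed direction. The log2 ratio of KO to WT ran from -5.91 to -5.20 for GCG and from -5.22 to -4.37 for PYY. That of HET to WT ran from -1.19 to -0.56 for GCG and from -1.40 to -0.80 for PYY. NPY rests on 24 to 248 UMIs a library, and its ratio of KO to HET changed sign between alternatives (-1.98 to 1.24). For PPY the ratio of KO to WT ran from -7.87 to -4.94 and that of HET to WT from -2.11 to -0.12. The 0 of 977 PPY-high and NPY-high cells in KO allow a share of up to 0.377%, and were 3 and 1 of 889 at 3000 UMIs a cell. Why values moved was not tested.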
